A study of Carassius auratus with 4 samples.

Results

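The transcription factor clones of a goldfish (Carassius auratus) cDNA array were taken as all clones whose array description names a zinc finger, a homeobox, a transcription factor, a forkhead, a helix-loop-helix protein, the RNA polymerase II transcriptional coactivator or a transcription initiation factor. Clones of jun, fos, egr and BTG and of nuclear hormone receptors were left out, which removed 3 jun clones from 106 matches. The rule gave 103 of the 8100 clones, with 82 gene names. By description, 54 were zinc finger proteins, 10 homeobox or POU proteins, 25 other factors, 12 general transcription factors and 2 the coactivator. No forkhead description was matched.

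Dispersed cells of male and female goldfish pituitaries received 10 nM goldfish secretoneurin for 12 h, and their RNA was set against RNA of control cells that had no such incubation. Secretoneurin is a peptide cut from secretogranin II, a protein of secretory granules. Each of the 4 arrays carried 1 RNA of each kind, with secretoneurin RNA in Cy5 on replicates 1 and 3 and in Cy3 on replicates 2 and 4. Nothing in the labels tells whether the pairs are separate cultures, and p-values therefore speak only of the spread among these samples, and that spread may be technical. Control cells are labelled as having no incubation, so the peptide and the time in incubation cannot be told apart. The dispersed cells are a mixture, and in such a mixture fewer cells of a type and less RNA per cell cannot be told apart.

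Zinc finger proteins fold around zinc ions, and many bind DNA, RNA, lipids or other proteins through these folds. Homeobox proteins bind DNA through a homeodomain and set regional and cell identity in development, including that of the pituitary. General transcription factors bring RNA polymerase II to the start of genes, and coactivators pass the signal of DNA-bound factors to that machinery.

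Over the whole array, each clone had 2 spots, 8089 clones were tested and 839 of them exceeded background in each channel of every array. A channel was called above background when its intensity exceeded the mean background by 2 background SDs. Probes for growth hormone, somatotropin and thyrotropin beta were above background in both groups on all 4 arrays, and the GTH-II probe was so on 2 arrays in secretoneurin cells and on 1 in control cells. Of the lists of cell type markers, 8 of 15 endocrine probes, 10 of 83 muscle probes and 7 of 30 leukocyte probes exceeded background in each channel of every array, against 0 of 59 neural and glial, 0 of 12 red blood cell and 0 of 8 connective tissue and endothelium probes. The part of these cell types in the values below was not tested. Replicates 2 and 4, which have the same dye orientation in the labels and the file headers, ran against each other over all probes, with a Pearson correlation of -0.61 across probes, which are not independent (Spearman -0.13). Replicates 1 and 3, which share the other dye orientation, had a Pearson correlation of 0.25. Between arrays of different orientation it was -0.0053 (1 and 2), -0.11 (1 and 4), 0.11 (2 and 3) and -0.25 (3 and 4). Over the members the Pearson correlation was -0.69 (Spearman -0.28) for replicates 2 and 4 and 0.47 for replicates 1 and 3. Between arrays of different orientation it lay between -0.16 and 0.10 over the members. The stated orientation was kept, and whether it holds on both arrays was not tested. Counts without either array, and with either turned, are given further down. Median intensities lay between 156 and 221 scanner units in Cy5 and between 400 and 653 in Cy3.

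None of the 103 transcription factor clones passed the threshold between secretoneurin and control cells in the limma fit across all probes, where the smallest Benjamini-Hochberg adjusted p was 0.998. Of all 8089 probes, 0 were called (0%), and the unmoderated test also called 0 of either. At an unadjusted limma p under 0.05, 3 members had lower and 1 had higher log2 ratios of secretoneurin over control, against 1.56% lower and 1.20% higher of all probes. These are 2.91% and 0.971% of the members, and with 1 clone in the upper group the shares cannot be read closely. The unmoderated test had 7 members at an unadjusted p under 0.05, against 4.81% of all probes. A member's log2 ratio had a median SE of 0.071, and its 95% confidence interval reached a median of 0.19 to either side.

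The members were spread to both sides of 0. Their median log2 ratio was 0.0038, with 50 below and 53 above 0, against a median of 0.0014 over all probes, and it changed sign with print-tip loess (-0.0058), without background correction (-0.0018) and in the authors' deposited table (-0.011). The median over members on replicates 1 to 4 was -0.018, 0.015, -0.014 and -0.00084. The fitted values ran between -0.37 and 0.24, the upper end from a clone never above background in control cells. A single direction on all 4 arrays was seen for 7 of 100 members with 4 values on the lower side, where 5.55% of all probes had it, and for 6 of 100 on the higher side, where 5.17% had it.

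**Figure D1:**
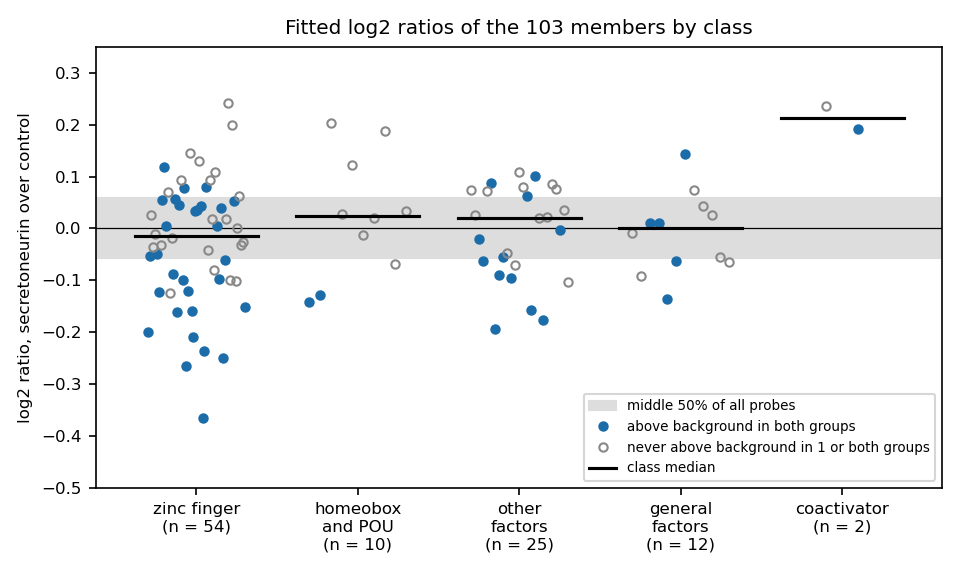
Fitted log2 ratio of secretoneurin over control for each of the 103 members (y axis) by description class (x axis), with filled points for clones above background on at least 1 array in each group, open points for the others, a line at the class median and a grey band for the middle 50% of all probes. The medians of 4 classes lie between -0.015 and 0.024, with signs that depend on the normalization for all but the zinc finger class, the median of the 2 coactivator clones is 0.21, and the open points are not measured folds.

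Signal limited what these clones could show. Of the members, 50 were above background on at least 1 array in each group, 30 never in control cells only, 4 never in secretoneurin cells only and 19 in no channel on any array (18.4%, against 14.5% of all probes). The 30 and the 4 were not counted over all probes. They therefore cannot be read as a trait of these clones or as an effect of secretoneurin. Members above background numbered 49, 15, 71 and 11 in secretoneurin cells on replicates 1 to 4, and 17, 44, 17 and 37 in control cells. The larger number was in the RNA that carried Cy5 on each array, so the mark followed the dye. In both channels of a single array, 21 members were above background on at least 1 array (20.4%), and the other 82 on none. Of all 8089 probes, 1900 were so on at least 1 array. Of the 50, 29 were marked in each group but on different arrays, so that on every array at least 1 channel of their ratio was not above background. Ratios of such clones are given with that remark, and for a clone never above background in 1 group no fold is given, only its normalized signals. Among the 50 members above background in each group on at least 1 array, 30 were below and 20 above 0, with a median log2 ratio of -0.058. The same selection over all probes held 4061 probes with a median of -0.018, of which 57.9% were below 0, against 60% of the members.

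The zinc finger clones were the largest class, and their median log2 ratio was -0.015 (28 below 0, 26 above). The descriptions show that the class is mixed. Its 3 FYVE clones name proteins that bind a phosphoinositide of endosome membranes, its 4 CCCH clones a finger type best known for RNA binding, and others a ubiquitin ligase (Tripartite motif protein 25), a deubiquitinase (TRABID protein) and a nucleic acid binding protein of cytoplasm and nucleus (CNBP). Of the FYVE clones, 2 had fitted log2 ratios below 0 and 1 above, and the CCCH clones had 2 on each side. None of these clones was above background in both channels of any array. Only the FYVE clone 24i04 and the CCCH clone 24o08 were above background on at least 1 array in each group, so no median is given.

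The clone with the smallest p of all members was 23j15, zinc finger protein ZNF364, also named Rabring 7, a RING-type ubiquitin ligase known in mammals as a partner of the endosome GTPase Rab7. Its normalized log2 signals on replicates 1 to 4 were 8.90, 8.20, 8.60 and 8.76 in secretoneurin cells, against 9.25, 8.40, 8.99 and 8.88 in control cells. Secretoneurin cells gave the lower signal on each of the 4 arrays, although the ranges of the groups overlap. The log2 ratios were -0.35, -0.20, -0.39 and -0.12, and the fitted value was -0.27 ± 0.054 (SE, 4 arrays), with an unadjusted limma p of 0.00699 and an adjusted p of 0.998. It was above background on 2 arrays in secretoneurin cells and on all 4 in control cells. The second clone of that name, 19m06, had log2 ratios of -0.094, 0.12, -0.23 and -0.14 and a fitted value of -0.087 ± 0.073, above background on 1 array in each group and in both channels of none.

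Clone 61a06, the zinc finger protein 38 homolog Zfp-38, divided the arrays by dye. Its log2 signals were 8.50, 9.04, 8.62 and 8.54 in secretoneurin cells, and 8.92, 8.95, 8.99 and 8.46 in control cells. The log2 ratios were -0.41 and -0.37 on the arrays with secretoneurin RNA in Cy5, and 0.094 and 0.081 on those with it in Cy3. Its fitted ratio was -0.15 ± 0.052, with an unadjusted limma p of 0.0420 and an adjusted p of 0.998, and its dye effect was -0.24 with an unadjusted p of 0.00929. No dye effect passed the threshold in the limma fit, for 0 of the 103 members and 0 of all probes (0%). At an unadjusted p under 0.05, 3 members were higher in Cy5 (3.34% of all probes) and 7 were lower (3.31% of all probes).

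Clones 19f21 (ZNF289) and 30i03 (TRABID protein) had 1 direction on all 4 arrays but were never above background in control cells. The signals of 19f21 were 7.79, 7.65, 7.84 and 7.90 in secretoneurin cells, and 7.85, 7.89, 7.88 and 8.05 in control cells, each lower in secretoneurin cells on its array. TRABID had signals of 8.33, 7.95, 8.59 and 8.76 in secretoneurin cells, and 8.02, 7.88, 8.53 and 8.69 in control cells, each higher in secretoneurin cells on its array. Clone 19c11 (zinc finger, matrin type 4) also had the higher signal in secretoneurin cells on every array, with a mean of 7.89 in secretoneurin cells and 7.83 in control cells. None of these 3 clones had an unadjusted limma p under 0.05.

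Of the 10 homeobox and POU clones, 4 had fitted values below and 6 above 0, with a median of 0.024 that changed sign with print-tip loess (-0.026). The Hox-C10 clone and 1 of the Meis2 clones were above background in each group on at least 1 array, and 5 of the 10 clones were above background in no channel of any array. Hox-C10 (21f17), a patterning factor of the posterior body axis, had log2 signals of 10.16, 10.28, 10.30 and 10.16 in secretoneurin cells, and 10.35, 10.59, 10.32 and 10.16 in control cells. Its fitted log2 ratio was -0.13 ± 0.080, with single ratios of -0.19, -0.31, -0.020 and 0.0025. The groups overlap, and replicate 4 showed almost no difference.

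Meis2, a partner of Hox and PBX proteins on DNA, had clone 16i02 above background on 2 arrays in secretoneurin cells and on 1 in control cells, in both channels of none. The signals of 16i02 were 8.29, 8.03, 8.03 and 8.32 in secretoneurin cells, and 8.47, 8.13, 8.06 and 8.59 in control cells. The signal was lower in secretoneurin cells on every array, by log2 ratios of -0.18, -0.092, -0.028 and -0.27, and the fitted ratio was -0.14 ± 0.066 (unadjusted limma p of 0.0932, adjusted p of 0.998). The other Meis2 clone, 59l12, had 3 values and was above background in no channel, with signals of 8.34, 7.88 and 8.31 in secretoneurin cells and 8.01, 8.24 and 7.87 in control cells on replicates 1, 2 and 4. The difference between the fitted values of the 2 Meis2 clones, 0.331 on the log2 scale, was the largest among genes with several clones, but neither clone had both channels above background on any array.

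Engrailed-1, a homeobox factor of the midbrain and hindbrain border, had 3 clones, none ever above background in control cells. Clone 60o05 averaged 7.83 in secretoneurin cells and 7.89 in control cells, with the lower signal in secretoneurin cells on all 4 arrays. Clone 53d19 averaged 7.78 in secretoneurin cells and 7.79 in control cells, and clone 61f22 averaged 7.90 in secretoneurin cells and 7.87 in control cells. The MSH-C clone (22k15), named for a homeobox family of msh type, averaged 8.48 in secretoneurin cells and 8.28 in control cells, with the higher signal in secretoneurin cells on each array, and was above background in no channel. The clone of the pre-B-cell leukemia factor (40k02), the PBX partner of Meis proteins, averaged 7.99 in secretoneurin cells and 7.87 in control cells. Hox-A4a (55k12) averaged 8.54 in secretoneurin cells and 8.52 in control cells, and the POU class 5 factor (35o12), the family of the pluripotency factor Oct4, averaged 8.19 in secretoneurin cells and 8.16 in control cells over 3 arrays.

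SOX-2 (59i10), a factor of progenitor cells in the pituitary, was above background on 1 array in each group and in both channels of none. It had signals of 8.58, 8.71, 8.0 and 8.20 in secretoneurin cells, and 8.30, 8.95, 7.95 and 8.30 in control cells. Its log2 ratios were 0.28, -0.24, 0.049 and -0.11, and the fitted value was -0.0036 ± 0.069. The ratios were above 0 with secretoneurin RNA in Cy5 and below 0 with it in Cy3.

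The median log2 ratio of the other factors was 0.021 (12 below 0, 13 above), and it changed sign without background correction (-0.0036) and in the authors' deposited table (-0.050). AP-2 alpha (52i02), a factor of neural crest and skin development, was the only one to exceed background in each channel of every array among the 4 members with an unadjusted p under 0.05. Its log2 signals were 10.97, 10.78, 10.80 and 9.84 in secretoneurin cells, and 11.17, 10.89, 11.16 and 9.87 in control cells. Secretoneurin cells had the lower signal on every array, while the ranges of the groups overlapped and replicate 4 was the lowest in both. The fitted log2 ratio was -0.18 ± 0.060 from single ratios of -0.20, -0.12, -0.36 and -0.025, with an unadjusted limma p of 0.0418 and an adjusted p of 0.998.

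**Figure D2:**
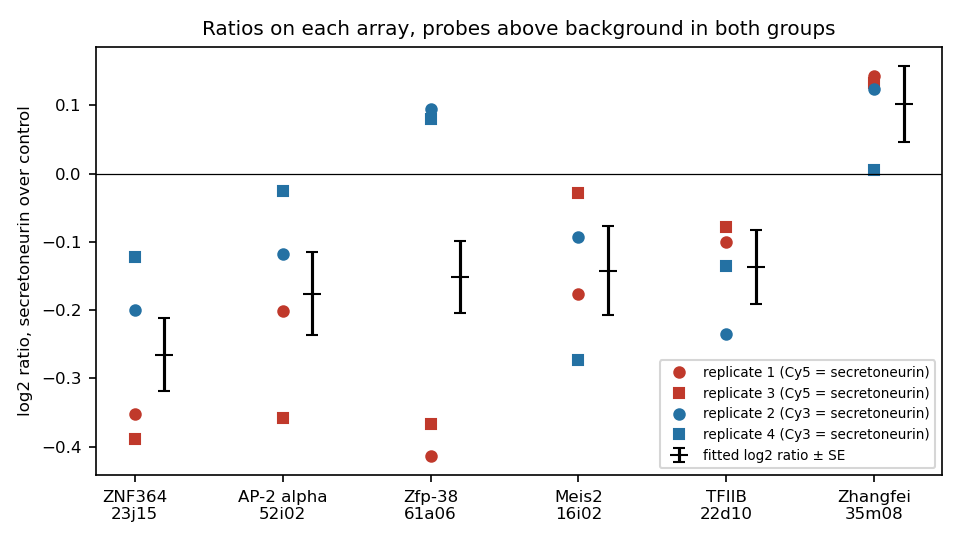
Log2 ratio of secretoneurin over control on each array (y axis) for the 6 clones with an unadjusted p under 0.05 or 1 direction on all 4 arrays that were above background in each group on at least 1 array, Meis2, TFIIB and Zhangfei never in both channels of 1 array (x axis), with red for arrays with secretoneurin in Cy5, blue for those with it in Cy3, and bars for the fitted value ± SE. ZNF364, AP-2 alpha, Meis2 and TFIIB lie below 0 on every array, Zhangfei lies above 0 on every array, and Zfp-38 divides by dye. Of the 100 members with 4 values, 7 were lower and 6 higher on all 4 arrays. The signal filter kept only Zhangfei of the higher ones, so the balance of directions shown depends on the filter.

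The metal-responsive factor MTF-1, which switches on metallothionein genes, had 2 clones with fitted log2 ratios of -0.19 ± 0.079 (23j13) and -0.054 ± 0.061 (24a22). Clone 23j13 had signals of 10.10, 9.98, 10.58 and 11 in secretoneurin cells, and 10.43, 10.15, 11.01 and 10.84 in control cells. It was lower in secretoneurin cells on 3 of 4 arrays, and the unadjusted limma p was 0.0688. The mean ratio of 23j13 was -0.39 with secretoneurin RNA in Cy5 and -0.00064 with it in Cy3, and its dye effect was -0.19. Zhangfei (35m08), a leucine zipper protein of the CREB and ATF family, had signals of 8.17, 8.22, 8.11 and 7.88 in secretoneurin cells, against 8.03, 8.10, 7.98 and 7.87 in control cells. Its fitted log2 ratio was 0.10 ± 0.056, with the higher signal in secretoneurin cells on every array and an unadjusted limma p of 0.138. It was above background on 2 arrays in secretoneurin cells and on 1 in control cells, in both channels of none.

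Among the cyclic-AMP-dependent factors, ATF-4 (30h22), a leucine zipper factor of the amino acid stress response, had signals of 8.82, 8.82, 8.20 and 8.96 in secretoneurin cells, and 8.96, 8.52, 8.22 and 8.85 in control cells. Its fitted log2 ratio was 0.063 ± 0.064. The mean ratio of 30h22 was -0.080 with secretoneurin RNA in Cy5 and 0.21 with it in Cy3. ATF-2 (30g06), a stress kinase target of the same family, was never above background in control cells and averaged 7.84 in secretoneurin cells and 7.76 in control cells. The helix-loop-helix protein bHLHB2 (30a09), a repressor linked to the circadian clock, was never above background in secretoneurin cells and averaged 8.0 in secretoneurin cells and 8.07 in control cells. E2-alpha (60p05), a broadly expressed helix-loop-helix factor, averaged 7.86 in secretoneurin cells and 7.82 in control cells and was never above background in control cells. Dp-2 (19j23), the partner of E2F factors of the cell cycle, was above background in no channel and averaged 7.91 in secretoneurin cells and 7.83 in control cells, with the higher signal in secretoneurin cells on every array.

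The median log2 ratio of the general factors was 0.00059 (6 below 0, 6 above), and it changed sign with print-tip loess (-0.0022), with median centring (-0.021) and without background correction (-0.0094). TFIIB (22d10), which links polymerase II to the promoter-bound TFIID, had signals of 7.87, 7.76, 7.89 and 7.91 in secretoneurin cells, and 7.97, 8.0, 7.97 and 8.04 in control cells. The signal was lower in secretoneurin cells on each array, and the fitted log2 ratio was -0.14 ± 0.054 (unadjusted limma p of 0.0632, adjusted p of 0.998). It was above background on 2 arrays in each group and never in both channels of 1 array. The TFIIH helicase subunit (28h05) had signals of 8.41, 8.47, 8.55 and 8.50 in secretoneurin cells, and 8.16, 8.47, 8.11 and 8.62 in control cells. Its fitted log2 ratio was 0.14 ± 0.064, with ratios of both signs. The mean ratio of 28h05 was 0.34 with secretoneurin RNA in Cy5 and -0.055 with it in Cy3. Its dye effect was 0.20, with an unadjusted limma p of 0.035. Clone 28h05 too was above background on 2 arrays in each group and in both channels of none. The TFIIE beta clone (61h17) was never above background in control cells and averaged 7.85 in secretoneurin cells and 7.91 in control cells, lower in secretoneurin cells on every array. The clone of TFIID subunit 10 (21n12), above background in both channels of no array, had a fitted log2 ratio of 0.011 ± 0.068. The mean ratio of 21n12 was -0.17 with secretoneurin RNA in Cy5 and 0.19 with it in Cy3. The clones of the other TFIID subunits, of TFIIA gamma, of TFIIF beta and of the TFIIH p34 subunit were never above background in control cells.

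BTF3, which is also a subunit of the complex that meets new proteins at the ribosome, had 3 clones. Clone 22h17 had signals of 10.71, 10.53, 10.41 and 11.05 in secretoneurin cells, and 10.90, 10.69, 10.28 and 11.07 in control cells, with a fitted log2 ratio of -0.063 ± 0.080. Clone 21e11 had signals of 9.45, 10.20, 9.45 and 9.06 in secretoneurin cells, and 9.48, 9.69, 9.39 and 9.57 in control cells. Replicates 2 and 4 opposed each other in 21e11 by log2 ratios of 0.51 and -0.50, and its fitted value was 0.0099 ± 0.18. Clone 21b17 was never above background in control cells.

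The coactivator of activated RNA polymerase II transcription, known in human cells as PC4, binds single-stranded DNA and helps activators reach the polymerase. Clone 19a02 had signals of 8.09, 7.98, 8.26 and 8.72 in secretoneurin cells, and 7.74, 7.97, 7.92 and 8.47 in control cells, with the higher signal in secretoneurin cells on each array. It had an unadjusted limma p of 0.0230 and an adjusted p of 0.998, but was above background on 1 array in secretoneurin cells and on none in control cells, so no fold is given. Clone 39e18 had signals of 8.87, 9.75, 9.02 and 8.52 in secretoneurin cells, and 8.62, 9.08, 8.71 and 8.99 in control cells. Its log2 ratios were 0.25, 0.67, 0.32 and -0.47, and its fitted value was 0.19 ± 0.20.

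The 8 members that exceeded background in each channel of every array (7.77% of the members, against 10.4% of all probes) had a median of -0.12 for the log2 ratio, and 6 lay below and 2 above 0. The median of the 839 such probes of the whole array was -0.020 (496 below 0, 343 above). Of these 8, AP-2 alpha was lower in secretoneurin cells on all 4 arrays. Another 4 were lower on 3 of 4 (Hox-C10, MTF-1, the BTF3 clone 22h17 and the finger protein ZNF366). Mean ratios were below 0 for 6 of the 8 with secretoneurin RNA in Cy5 and for 5 of the 8 with it in Cy3. Of these 5, the MTF-1 clone 23j13 had a mean of -0.00064. XLCGF49.1 (35j02), also among the 5, had opposed ratios of 1.09 and -2.72 on replicates 2 and 4. The share below 0 in each orientation was not counted for the 839 probes. Their medians on replicates 1 to 4 were -0.046, -0.0011, -0.060 and 0.029. ZNF366 (23l22), a finger protein known in mammals as a marker of dendritic cells, had signals of 9.79, 10.61, 10.74 and 10.78 in secretoneurin cells, and 10.17, 10.63, 11.08 and 10.52 in control cells. Its fitted log2 ratio was -0.12 ± 0.072. The mean ratio of 23l22 was -0.36 with secretoneurin RNA in Cy5 and 0.12 with it in Cy3. Its dye effect was -0.24, with an unadjusted limma p of 0.026. The CW-type clone 51l17 had signals of 11.91, 11.79, 10.36 and 11.57 in secretoneurin cells, and 12.17, 11.61, 10.53 and 11.31 in control cells, with ratios of -0.26 and -0.17 on replicates 1 and 3 and of 0.19 and 0.26 on replicates 2 and 4. Without the 2 clones whose replicates 2 and 4 lay over 1 apart, 5 of 6 were below 0, with a median of -0.12. This cut was chosen after seeing the values, and it was not applied to the 839 probes of the whole array.

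**Figure D3:**
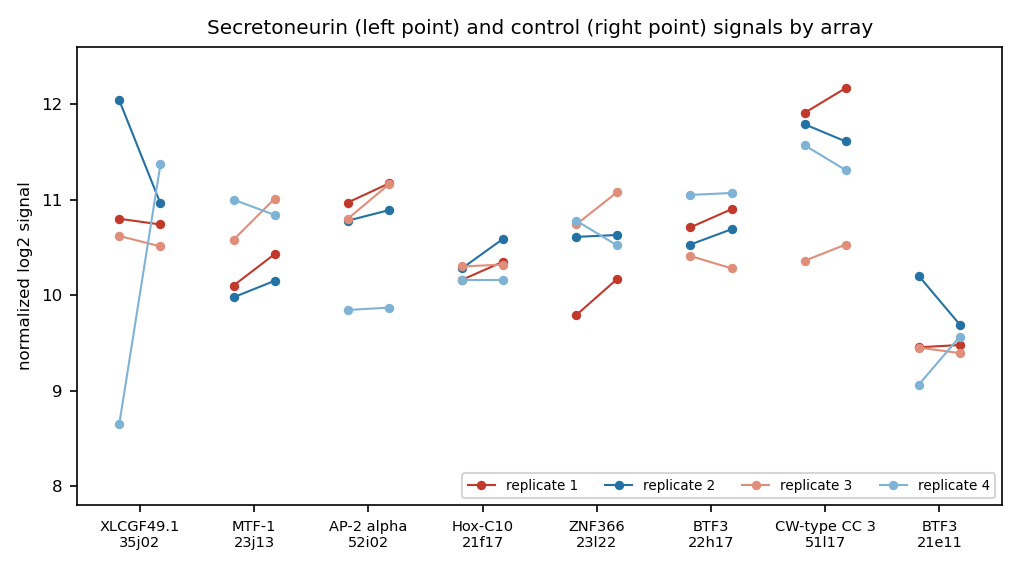
Normalized log2 signal (y axis) of the 8 members that exceeded background in each channel of every array (x axis), with the secretoneurin signal as the left and the control signal as the right point of each line and 1 line per replicate. AP-2 alpha slopes up to control on every array, while XLCGF49.1 and the BTF3 clone 21e11 slope in opposite directions on replicates 2 and 4.

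There were 17 gene names with several clones, 38 clones in all, and the fitted values, which lay near 0 and came in part from clones never above background in 1 group, differed in sign in 11 names and shared it in 6. The median distance between the lowest and highest clone of a gene was 0.14 on the log2 scale. The 6 with 1 sign were the coactivator, Sox1, a factor of neural precursors, the BED domain protein 1, ZNF135, ZNF364 and MTF-1. The BED domain clones and 15p24 of Sox1 were never above background in control cells, while the Sox1 clone 20i05 had a fitted log2 ratio of 0.088 ± 0.068. The 2 clones of ZNF135 had 0.055 ± 0.063 and 0.12 ± 0.074. These 3 clones were above background in both channels of no array.

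Among the genes whose clones differed in sign, the following clones were above background in each group on at least 1 array, though 29o12, 30l11, 24o08 and 19n11 in both channels of none. The CBF-A clone 29o12, a subunit of the CCAAT-binding factor NF-Y, had a fitted log2 ratio of -0.096 ± 0.094. Transcription factor 20 (35l24) had -0.16 ± 0.085, with single ratios of -0.051, -0.15, 0.086 and -0.52. ZIC 1 (30l11), a factor of the dorsal neural tube, had 0.043 ± 0.052. The CCCH type protein 1 clone 24o08 had -0.21 ± 0.12, and the CW-type clone 51p13 had -0.25 ± 0.14 where the other clone of that name, 51l17, had 0.0049 ± 0.056. Of the CNBP clones, 19n11 had 0.057 ± 0.084 and 35m10 had 0.080 ± 0.20. ZNF23 had 3 clones with fitted values of -0.20 ± 0.078 (12o24), -0.12 ± 0.062 (16g10) and 0.046 ± 0.078 (21a24), of which 16g10 and 21a24 had both channels above background on no array. Clone 12o24 of ZNF23 had signals of 9.04, 9.20, 9.22 and 9.19 in secretoneurin cells, and 9.54, 9.33, 9.57 and 9.02 in control cells. Its mean ratio was -0.42 with secretoneurin RNA in Cy5 and 0.022 with it in Cy3.

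Several zinc finger clones had large and opposite ratios on replicates 2 and 4, and wide errors. The gastrula zinc finger protein XLCGF49.1 (35j02), named after a frog embryo sequence, had signals of 10.80, 12.04, 10.62 and 8.65 in secretoneurin cells, and 10.74, 10.96, 10.51 and 11.37 in control cells. Its log2 ratios were 0.059, 1.09, 0.11 and -2.72, and the fitted value was -0.37 ± 0.66. ZNF330 (35j14), an autoantigen of the nucleolus, had ratios of -0.11, 1.28, 0.17 and -2.27. ZNF261 (23c06) had ratios of -0.084, 1.16, 0.13 and -1.61, and Tripartite motif protein 25 (14g12) had -0.31, 1.31, -0.36 and -0.86. On replicates 1 and 3 these 4 clones lay between -0.36 and 0.17.

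A replicate 2 ratio more than 1 above the replicate 4 ratio, a distance chosen after seeing the values, was found in 8 of 100 members and in 6.55% of all probes. None of the members, and 0.189% of all probes, had the opposite pattern. Both spots of each of the 8 clones had a ratio above 0 on replicate 2 and below 0 on replicate 4, 16 of 16 spots. The other 4 were the second clone of ZNF261 (23e10), the CNBP clone 35m10, the coactivator clone 39e18 and the BTF3 clone 21e11.

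**Figure D4:**
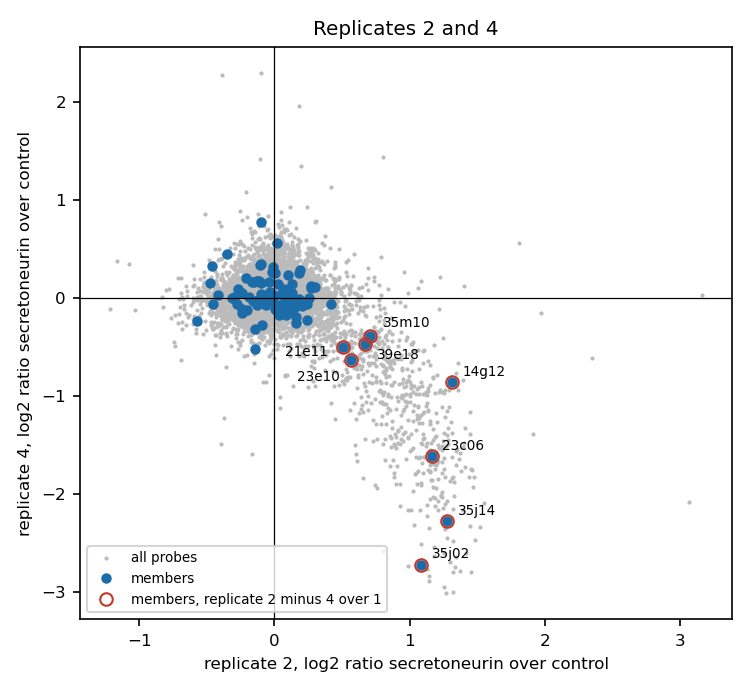
Log2 ratio of secretoneurin over control on replicate 2 (x axis) and replicate 4 (y axis) for all probes (grey), members (blue) and the 8 members whose replicate 2 ratio exceeds the replicate 4 ratio by more than 1 (red rings). The ringed clones lie at the lower right, where the array's other probes with opposed values lie too.

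Leaving out either array changed the calls. Each fit without 1 array leaves another array alone in its dye orientation, and the fit passes through that array's ratio exactly. A clone's residual then comes only from the other 2 arrays, so these p-values do not measure the spread of the lone array. Without replicate 1 or 3, these 2 are the opposed replicates 2 and 4. Without replicate 2, limma called 5 of 100 members and 346 of all probes (4.35%, 37 higher and 309 lower), and without replicate 4 it called 6 of 100 members and 437 of all probes (5.46%, 419 higher and 18 lower). The members called without replicate 2 were XLCGF49.1 at a log2 ratio of -1.32, ZNF330 at -1.12, ZNF261 (23c06) at -0.79 and Tripartite motif protein 25 at -0.60. ZNF239 (55k11), never above background in control cells, was called on the higher side. Without replicate 4 the same first 4 clones were called on the higher side, at log2 ratios of 0.58, 0.65, 0.59 and 0.49, together with the second clone of ZNF261 (0.38, both channels above background on no array) and the coactivator clone 39e18 (0.47). The direction of these 4 calls turned with the array left out. Without replicate 1 and without replicate 3, 0 members and 0 of all probes were called, with 1 member at an unadjusted p under 0.05 in each fit, against 1.14% of all probes without replicate 1 and 2.06% without replicate 3. With the sign of replicate 2 turned, 8 of 100 members had 1 direction on the lower side (6.68% of all probes) and 5 on the higher side (6.41%), and the members' median was -0.0078. With that of replicate 4 turned, 14 had it on the lower side (7.51%) and 11 on the higher side (8.59%), and the median was 0.0058. Both were chosen after seeing the data.

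Other clones that the rule does not take, matched by description words of transcription and chromatin proteins, numbered 62. Most were proteins such as SMAD proteins, Mediator, histone deacetylases and elongation factors. The word match also took some clones of other kinds, such as Enigma homolog and nucleobindin 2. The median log2 ratio of the 62 clones was -0.0015, with 34 below and 28 above 0, and 0 were called by limma. At an unadjusted limma p under 0.05, 1 of the 62 was found, against 1.56% lower and 1.20% higher of all probes. It was histone deacetylase 1 (58b02), an enzyme that removes acetyl groups from histones. Its log2 ratios were 0.12, 0.18, 0.067 and 0.23, with a fitted value of 0.15 ± 0.053. The unadjusted limma p was 0.0463 and the adjusted p 0.998. Clone 58b02 was above background on 2 arrays in each group. Whether both channels of any single array were above background is not given by these counts.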

How the data were processed

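Per the file headers, the scanner output that the authors deposited gives linear intensity per spot for both dyes with a local background, without subtraction or crosstalk correction, and a mark (on or off) for spots to ignore. A value table of log2 ratios was also deposited by the authors. Its columns, read as Cy5 over Cy3, correlated with the loess ratios at 0.83 to 0.88 across clones and had medians of 0.016, 0.047, 0.020 and -0.032. The sources used here do not give its normalization or centring, and it served only as an alternative. Background was corrected with normexp (offset 50) and Cy5 over Cy3 log2 ratios were normalized by loess with a span of 0.3 and 4 iterations (limma 3.58.1, R 4.3.3). On each array 1128 control or empty spots, and between 421 and 981 spots marked to ignore, carried no weight. Values of the 2 spots per clone were averaged. Clones with values on at least 3 of 4 arrays were tested. Channel signals were scaled with Aquantile after loess. Ratios were turned to secretoneurin over control, and lmFit held a secretoneurin and a dye term, with 2 residual degrees of freedom. P-values from eBayes (two-sided) were adjusted by Benjamini-Hochberg over all probes at a threshold of 0.05. The day of quantification in the headers follows the dye orientation, so the dye term covers both. The precision is limited by the number of arrays. The fit was tested on simulated data with independent errors among arrays. These data did not hold the opposition of replicates 2 and 4, so the fit was not tested under it.

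Members, classes and marker lists were chosen with earlier results of these data known. Clones were named if they had an unadjusted p under 0.05, were among up to 10 per direction with 1 direction on 4 arrays, exceeded background in each channel of every array, belonged to a gene with several clones, or were described as homeobox, helix-loop-helix, coactivator or general factors. SOX-2, ATF-2, ATF-4, E2-alpha, ZNF330, Tripartite motif protein 25, ZNF239 and the FYVE clone 24i04 fall outside this rule. These clones were chosen after their values were seen. Alternatives were print-tip loess, median centring, no background correction, the authors' table, no dye term, an unmoderated test, filters on dim probes, 1 value per gene name and each array left out. Names of genes follow the array design.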

Additional observations from a re-analysis of the deposited data

Results flagged for a closer look

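Of 66 sets of 4 array values examined, 5 had 1 array standing far from the other 3 by Dixon's test at 95%, which chance gives in about 1 of 20 sets. The CCAAT-binding factor subunit CBF-A (29o12) had a log2 ratio of secretoneurin over control of -0.42 on replicate 2, against -0.016 to 0.035 on the others. Sox1 (20i05) had -0.10 on replicate 2, against 0.14 to 0.17 on the others. Zhangfei (35m08) had 0.0058 on replicate 4, against 0.12 to 0.14 on the others. The TRABID clone 30i03, never above background in control cells, had 0.31 on replicate 1, against 0.059 to 0.074 on the others, and these are not measured folds. The median of the 2 coactivator clones was -0.11 on replicate 4, against 0.30 to 0.34 on the others. Clone 19a02, 1 of the 2, was never above background in control cells, so this median too is not a measured fold.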

How the results depend on the processing

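In the fits with each other normalization, without the dye term, unmoderated, per gene name or on probes above background, 0 members and 0 of all probes were called for secretoneurin. For the dye, 0 members and 0 of all probes were called with each other normalization and on probes above background. Dye calls were not counted in the unmoderated fit or per gene name. Leaving out 1 array gave between 0 and 6 members and between 0 and 437 of all probes. With the sign of replicate 4 turned, an alternative chosen after seeing the data, 1 of all probes and 0 members were called, and with that of replicate 2 turned 0 and 0. The members' median was -0.011 in the authors' deposited table, where that of all probes was 0.00034. It was -0.15 over 18 members above background in both channels on at least 2 arrays and -0.12 over 8 on all 4. The medians of all probes under these filters were also below 0, at -0.031 and -0.020. Class medians moved with print-tip loess (homeobox -0.026), median centring (zinc finger -0.0029), the authors' deposited table (other factors -0.050) and 1 value per gene name (zinc finger -0.026). In the filter on 2 arrays they were -0.16 for 12 zinc finger, -0.13 for 1 homeobox and -0.18 for 3 other clones. In that on 4 arrays they were -0.12 for 3, -0.13 for 1 and -0.18 for 2. Of the 12 zinc finger clones, 35j02, 35j14, 23c06, 14g12 and 35m10 had a replicate 2 ratio more than 1 above the replicate 4 ratio. Clones 12o24, 20a16, 61a06, 23l22 and 51l17 had mean ratios between -0.42 and -0.21 with secretoneurin RNA in Cy5. With it in Cy3 their means lay between 0.022 and 0.22. Clones 23j15 and 51p13 had means below 0 in both orientations. The 3 on 4 arrays were 35j02, 23l22 and 51l17. So these zinc finger medians are not read as a decrease. Both filters also kept 2 general factor clones, both of BTF3, nearer 0 at 0.0099 (21e11) and -0.063 (22h17). The filters keep fewer clones by construction, and the other causes were not tested. Leave-one-out medians ran from -0.016 to 0.00054 for zinc finger and from -0.061 to 0.041 for homeobox clones. Of the 103 members, 5 to 11 had the other sign under another normalization. At an unadjusted p under 0.05 there were 4 of 103 members as reported (2.76% of all probes), 7 in the unmoderated test (4.81%), 13 of 100 without replicate 2 (11.9%), 22 of 100 without replicate 4 (1120 of 8008 probes), and 0 in the authors' deposited table (1.87%). No further paired analysis was run, because each array holds both RNAs of its number and the pairing is already in the ratio. Dim signal limits most clones, since 82 of the 103 had both channels above background on no array. Of all 8089 probes, 1900 had both channels above background on at least 1 array.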
